A study of Mus musculus with 10 samples.

Results

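Retinoic acid synthesis and signalling in the mouse hippocampus was described here through 9 genes, compared between DU6 and FztDU mice. They were the aldehyde dehydrogenases Aldh1a1, Aldh1a2 and Aldh1a3, the cellular retinoic acid binding proteins Crabp1 and Crabp2, the clearing enzyme Cyp26b1, and the nuclear receptors Rara, Rarb and Rxrg. Each of the 9 genes had 1 transcript cluster, the unit in which the array summarizes its probes for a gene, so they made up 9 of the 22206 clusters measured. Clusters were found by gene symbol. Aldh1a1 was chosen by its measured difference in log2 value between the lines in these data, and the others were chosen as its family and pathway when results of these data were known, so the line differences of the 9 genes are given as a description, without a test.

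Hippocampal RNA came from 5 male mice of DU6, an outbred line with polygenic obesity from long selection for high body mass, and from 5 male mice of FztDU, the outbred control line that was not selected and was bred from several outbred and inbred strains. Mice of both lines received ordinary chow, lived under specific pathogen-free conditions and were killed at 21 to 22 weeks of age according to the labels, although one passage of the study gives a younger age. Entire hippocampi were snap-frozen, and RNA of 1 mouse was hybridized to each Clariom S Mouse array. The lines differ in body mass and in genetic background at once, and these cannot be told apart here.

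Retinoic acid is made from vitamin A in 2 oxidation steps, retinol to retinal by alcohol and retinol dehydrogenases, and retinal to retinoic acid by the aldehyde dehydrogenases of the Aldh1a family. Cellular binding proteins then carry it to the nucleus or to cytochromes of the Cyp26 family, which inactivate it. In the nucleus it binds retinoic acid receptors, which sit on DNA as pairs with retinoid X receptors. In the adult brain the meninges are a known site of its synthesis, and in the hippocampus it is known for roles in neurogenesis and synaptic scaling.

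The DNA element that these receptors bind is best known from the promoter of Rarb, which is itself switched on by retinoic acid. It is shown here because Rarb is one of the 9 genes and is a textbook readout of the pathway, and Cyp26a1, another textbook target, is set beside it. Sequences are those of RefSeq on GRCm38.p6, the 250 bases before the annotated start, 5′ to 3′ on the strand of the gene. Capitals mark the element, 2 hexamers of 6 bases with 5 bases between them.

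Rarb: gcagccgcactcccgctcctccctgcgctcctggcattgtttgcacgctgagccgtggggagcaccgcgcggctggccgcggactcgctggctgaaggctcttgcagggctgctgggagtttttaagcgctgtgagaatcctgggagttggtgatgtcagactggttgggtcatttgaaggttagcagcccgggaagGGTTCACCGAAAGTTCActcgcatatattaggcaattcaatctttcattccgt

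Cyp26a1: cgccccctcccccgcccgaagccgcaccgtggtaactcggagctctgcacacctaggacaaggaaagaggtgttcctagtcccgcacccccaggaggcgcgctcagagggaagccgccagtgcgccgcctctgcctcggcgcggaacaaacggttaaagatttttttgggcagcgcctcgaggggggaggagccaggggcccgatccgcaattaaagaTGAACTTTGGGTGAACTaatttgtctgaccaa

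The Rarb window lies at chr14:16575477-16575726 on the minus strand, with the element 53 to 37 bases before the start and read in the direction of the gene. The Cyp26a1 window lies at chr19:37697558-37697807 on the plus strand, with the element 32 to 16 bases before the start and read on the opposite strand. The search took, at each end and on both strands, the canonical hexamer AGGTCA or one of its near variants. These were the variant AGTTCA and likewise the variant GGTTCA, which both occur in the Rarb element, and as the last variant GGGTCA. Such an element was in 29 of 32851 windows of this length, or 0.0883%. Of the 9 genes, 7 had windows in the table, 12 in all, and the Rarb window shown held the element, while the other 11 did not. The search allowed both hexamers of the Rarb element, so that match was given in advance. The Cyp26a1 element, read on its strand, has the allowed variant AGTTCA at each end. Of 68 genes of the retinoid and aldehyde dehydrogenase lists with a window, Cyp26a1 alone held such an element. With 2 bases between the hexamers, 57 windows (0.174%) held a match, and 0 of the 12 did. A single AGGTCA, which the longer elements can contain, was in 4607 windows (14.0%), and among the 9 genes in a window of Rxrg alone. A match is a string of letters in this window and not a measured site.

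Aldh1a1 has a neighbouring copy in the mouse, Aldh1a7, and the 250 bases before the start of each are set side by side. By RefSeq these bases lie before the annotated start of the RNA, though the array's annotation puts the last few of each window inside the cluster. The windows thus lie almost wholly outside the RNA. Their likeness therefore cannot show whether probes of one gene pick up RNA of the other. Capitals mark the longest run of letters that the 2 windows share, 65 bases.

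Aldh1a1: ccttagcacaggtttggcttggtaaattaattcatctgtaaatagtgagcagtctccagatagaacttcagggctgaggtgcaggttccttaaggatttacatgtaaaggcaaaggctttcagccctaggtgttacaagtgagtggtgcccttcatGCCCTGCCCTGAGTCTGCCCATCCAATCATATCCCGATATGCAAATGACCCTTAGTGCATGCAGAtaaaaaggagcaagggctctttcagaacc

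Aldh1a7: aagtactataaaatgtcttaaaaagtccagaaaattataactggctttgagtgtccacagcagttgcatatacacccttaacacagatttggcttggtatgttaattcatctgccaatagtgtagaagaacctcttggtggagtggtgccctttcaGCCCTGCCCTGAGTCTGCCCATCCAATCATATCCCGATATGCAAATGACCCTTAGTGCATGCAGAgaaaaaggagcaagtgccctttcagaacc

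The Aldh1a1 window is chr19:20601718-20601967 on the plus strand, 1 of 2 that the table lists for the gene, and the Aldh1a7 window is chr19:20727557-20727806 on the minus strand. Aligned over 272 columns, the windows had 185 identical bases, or 68.0%. The probe sequences themselves were not analysed here.

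Aldh1a1, the retinal dehydrogenase that is abundant in midbrain dopamine neurons and several epithelia, set the DU6 arrays apart from the FztDU arrays in all but 1 case. Its log2 values in DU6 were 6.24, 8.39, 6.32, 6.02 and 6.44 in replicates 1 to 5, against 7.95, 7.68, 8.28, 7.89 and 8.11 in FztDU. DU6 replicates 1, 3, 4 and 5 lay close together and below every FztDU array, whereas DU6 replicate 2 lay above all of them, and so the groups overlapped. The mean was 6.68 ± 0.97 in DU6 and 7.98 ± 0.23 in FztDU (SD, n = 5 each), a log2 difference of -1.30 (SE 0.36), which corresponds to a level 2.46-fold higher in FztDU. Over all 22206 clusters, 132 (0.594%) had a spread within DU6 at least as large as that of Aldh1a1. The cluster lies at chr19:20601961-20643462 on the plus strand, on mm10 as annotated by the array's maker.

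The comparison at Aldh1a1 depended on DU6 replicate 2. That array exceeded the next DU6 array by 1.95 and the FztDU mean by 0.41, while a gap of 1.24 parted the highest of the other DU6 arrays and the lowest FztDU array. Without that array the mean of DU6 was 6.25 ± 0.18 (SD, n = 4, range 6.02 to 6.44) and the log2 difference was -1.73. The array is set aside here because its value stood out, so the difference without it is no independent evidence of a difference. The line averages that the authors deposited in a second table were 7.95 in DU6 and 10.73 in FztDU for this gene. Those averages are spread more widely than the deposited array values, by a step that the sources used here do not state, and the fold given above holds for the array values only. The paper lists Aldh1a1 among the genes it called higher in FztDU, from its own comparison, which was not used here.

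The same DU6 replicate also carried transcripts of the cerebellum. The mean log2 value of 10 cerebellar markers was 9.45 in DU6 replicate 2 and 5.03 to 5.64 in the other DU6 arrays, against 4.96 to 5.28 in FztDU. Summed on the linear scale, these markers ran from 592 to 12687 in DU6 and from 537 to 1357 in FztDU. Gabra6, a GABA receptor subunit that defines cerebellar granule cells, was at 11.11 in that array and at 2.18 to 2.72 in the other 9, and the authors' table calls it expressed in neither line. The 12 hippocampal neuron markers had their lowest mean there, 6.76, against 7.35 to 7.66 in the other DU6 arrays and 7.28 to 7.52 in FztDU. With the choroid plexus and cerebellar means as covariates in the fit, the log2 difference of Aldh1a1 was -1.84. The cerebellar mean was far higher in that array than in the other 9, so this fit comes close to leaving the array out. It cannot tell cerebellar tissue from anything else particular to that array. The part of cerebellar tissue in the Aldh1a1 value of that array was not tested.

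**Figure D1:**
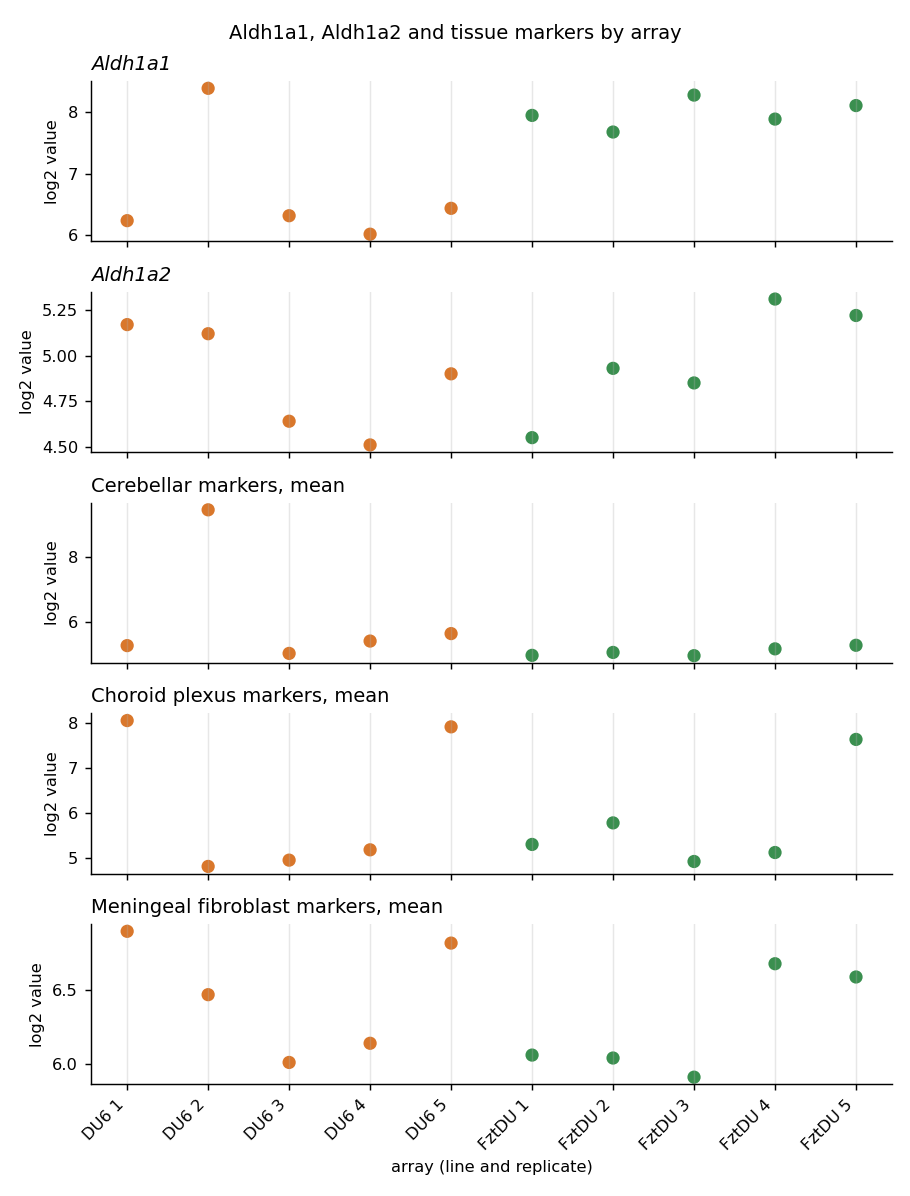
Log2 value of Aldh1a1 and Aldh1a2 and mean log2 value of the cerebellar, choroid plexus and meningeal fibroblast markers on each of the 10 arrays, DU6 in orange and FztDU in green, with a vertical axis of its own in each panel. DU6 replicate 2 is the highest array for Aldh1a1 (8.39) and for the cerebellar markers (9.45), and the choroid plexus markers are high in DU6 replicates 1 and 5 (8.06 and 7.92) and FztDU replicate 5 (7.64).

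Midbrain dopamine neurons, which are rich in Aldh1a1, were also checked. The mean of 10 of their markers was 4.85 to 5.25 in DU6, with the lowest value in replicate 2, against 4.93 to 5.19 in FztDU, so these ranges overlapped. The 8 astrocyte markers ran from 9.52 to 9.87 in DU6 and from 9.42 to 9.61 in FztDU, and the 10 endothelial and mural cell markers from 7.30 to 7.69 in DU6 and from 7.0 to 7.59 in FztDU. In RNA of a whole tissue, fewer cells of a type and less RNA per cell cannot be told apart.

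Aldh1a2, the retinal dehydrogenase of the meninges and of the embryonic mesoderm, differed little between the lines. Its log2 values were 5.17, 5.12, 4.64, 4.51 and 4.90 in DU6, against 4.55, 4.93, 4.85, 5.31 and 5.22 in FztDU. High and low arrays occurred in both lines, and the groups overlapped over most of their range. It lies at chr9:71215789-71296243 on the plus strand. The means were 4.87 ± 0.29 in DU6 and 4.97 ± 0.30 in FztDU (SD, n = 5 each), a difference of -0.10 (SE 0.17) that ran from -0.30 to -0.01 over the alternative settings. The 4 highest arrays, DU6 replicates 1 and 2 and FztDU replicates 4 and 5, were among the 5 with the highest mean of the 15 meningeal fibroblast markers. That mean was 6.90 and 6.47 in those 2 DU6 arrays, against 6.68 and 6.59 in those 2 FztDU arrays. Over both lines it ran from 6.01 to 6.90 in DU6 and from 5.91 to 6.68 in FztDU, with linear sums of 1430 to 4304 in DU6 and 1531 to 3442 in FztDU. The part of meningeal tissue in the Aldh1a2 values was not tested.

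Aldh1a3, the third member of the family, known from the eye and the nose of the embryo, spread more within the lines than it differed between them. Its values were 4.22, 4.36, 3.96, 3.70 and 5.0 in DU6, against 4.01, 4.54, 4.76, 4.59 and 3.93 in FztDU. Both the highest and the lowest array belonged to DU6. Its cluster is at chr7:66390892-66427517 on the minus strand. The means were 4.25 ± 0.49 in DU6 and 4.37 ± 0.37 in FztDU (SD, n = 5 each), and the difference was -0.12 (SE 0.23). Over the alternative settings it ran from -0.47 without the 3 arrays rich in choroid plexus genes to 0.02 without DU6 replicate 4.

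The binding proteins came next. Crabp1, which carries retinoic acid in the cytoplasm and delivers it to the Cyp26 enzymes, was at 3.89, 2.97, 3.31, 3.87 and 4.35 in DU6, against 3.16, 3.76, 3.98, 3.82 and 3.33 in FztDU. The DU6 arrays reached both above and below the FztDU arrays. It lies at chr9:54764748-54773110 on the plus strand. The mean was 3.68 ± 0.54 in DU6 and 3.61 ± 0.35 in FztDU (SD, n = 5 each), a difference of 0.07 (SE 0.24). It ran from -0.30 to 0.24 over the alternative settings, with the lowest value without the 3 arrays rich in choroid plexus genes, and turned below 0 also without DU6 replicate 5 (-0.10), FztDU replicate 1 (-0.04) or FztDU replicate 5 (-0.00).

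Crabp2, which hands retinoic acid to its receptors in the nucleus, was at 5.32, 5.42, 5.23, 5.30 and 5.63 in DU6, against 5.11, 5.74, 5.15, 5.77 and 4.92 in FztDU. Here the DU6 arrays lay inside the range of the FztDU arrays. It lies at chr3:87948666-87953376 on the plus strand. The means were 5.38 ± 0.16 in DU6 and 5.34 ± 0.39 in FztDU (SD, n = 5 each), a difference of 0.04 (SE 0.17). It ran from -0.13 to 0.15 over the alternative settings, with the lowest value without the same 3 arrays, and turned below 0 also without DU6 replicate 5 (-0.02) or FztDU replicate 1 (-0.02), 3 (-0.00) or 5 (-0.06).

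Cyp26b1, the cytochrome that inactivates retinoic acid and the main one of its family in the hippocampus, was at 5.19, 5.38, 6.18, 5.51 and 5.88 in DU6, against 5.95, 5.95, 5.65, 5.76 and 5.57 in FztDU. DU6 replicates 1, 2 and 4 lay below every FztDU array and replicate 3 lay above them all. Its cluster is at chr6:84571414-84593908 on the minus strand. The means were 5.63 ± 0.40 in DU6 and 5.78 ± 0.17 in FztDU (SD, n = 5 each), with a difference of -0.15 (SE 0.17). It ran from -0.29 to 0.01 over the alternative settings, the highest with the tissue means as covariates.

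Among the receptors, Rara, the retinoic acid receptor alpha, known for synaptic scaling in hippocampal neurons, was at 5.90, 6.37, 5.95, 5.86 and 5.77 in DU6, against 6.33, 6.34, 6.09, 5.70 and 6.19 in FztDU. The highest array was DU6 replicate 2 and the lowest was FztDU replicate 4. Its cluster is at chr11:98927818-98974942 on the plus strand. The means were 5.97 ± 0.23 in DU6 and 6.13 ± 0.26 in FztDU (SD, n = 5 each), a difference of -0.16 (SE 0.15) that ran from -0.28 to -0.06 over the alternative settings.

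Rarb, the receptor beta whose promoter element is shown above, was at 5.99, 6.18, 5.60, 5.83 and 6.04 in DU6, against 5.95, 6.06, 6.20, 6.01 and 6.22 in FztDU. DU6 replicates 3 and 4 lay below every FztDU array, and the others lay among them. The means were 5.93 ± 0.22 in DU6 and 6.09 ± 0.12 in FztDU (SD, n = 5 each), a difference of -0.16 (SE 0.12) that ran from -0.31 to -0.08 over the alternative settings. The cluster spans chr14:16430839-17082331 on the minus strand and so includes the window with the element.

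Rxrg, the retinoid X receptor gamma, a partner of the receptors that is known from striatum and pituitary, was at 4.37, 4.41, 4.55, 5.02 and 4.17 in DU6, against 4.55, 4.47, 4.69, 4.70 and 4.71 in FztDU. The FztDU arrays kept within 0.24 of each other, and the DU6 arrays reached beyond them on both sides. It lies at chr1:167598362-167639623 on the plus strand. The means were 4.50 ± 0.32 in DU6 and 4.62 ± 0.11 in FztDU (SD, n = 5 each), a difference of -0.12 (SE 0.14). It ran from -0.25 to 0.06 over the alternative settings, the highest without the 3 arrays rich in choroid plexus genes.

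**Figure D2:**
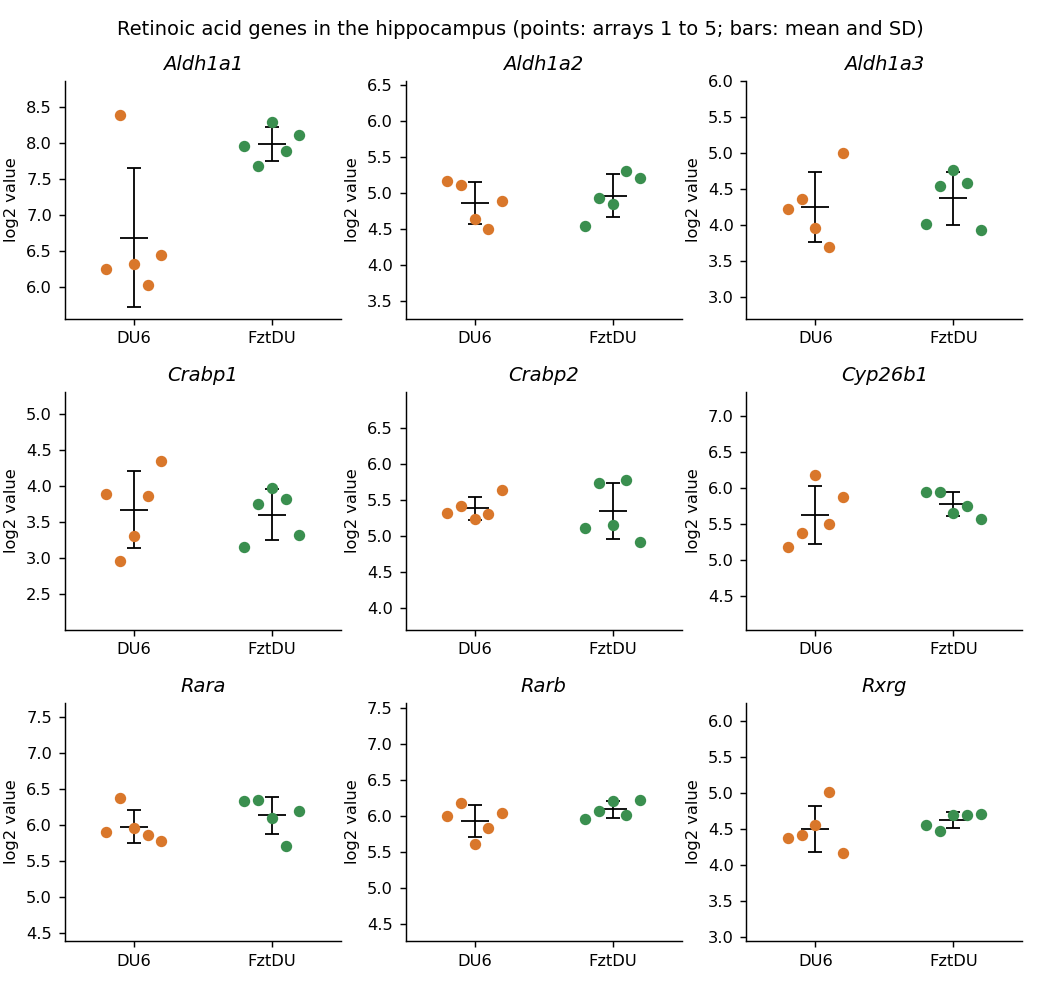
Log2 values of the 9 genes on the arrays of DU6 (orange, left) and FztDU (green, right), replicates 1 to 5 from left to right within a line, with the mean and SD as black bars and an axis of equal span in each panel. DU6 replicates 1, 3, 4 and 5 lie below all FztDU arrays at Aldh1a1 (6.02 to 6.44 against 7.68 to 8.28), and the lines overlap at all 9 genes.

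Seen together, the 9 genes had a median log2 difference of -0.12, beside 0.00 over all clusters, and 7 of them had a difference below 0, as did 49.2% of all clusters. The call rule was a fold over 2 in either direction together with a limma p under 0.05 after Benjamini-Hochberg adjustment over all clusters. By it 0 of the 9 were called, where 25 clusters or 0.113% were called in all, 0.0180% higher in DU6 and 0.0946% lower. At an unadjusted p under 0.05 the count was 1, Aldh1a1, where 5.86% of all clusters passed. Without DU6 replicate 2, the count at the adjusted threshold was 1, again Aldh1a1. The rule that chose the genes used this contrast, and nothing is read from these counts. The arrays of the lines overlapped at all 9 genes, and they did not overlap at 1.22% of all clusters. In the array values the absolute differences aside from Aldh1a1 ran up to 0.16. The authors' line averages, on their wider scale, lay further apart at some genes. They were 7.06 in DU6 and 7.63 in FztDU for Rara, and 5.57 and 6.06 for Cyp26b1. At Aldh1a2 they were 6.16 in DU6 and 6.04 in FztDU, opposite in sign to the difference of the array values. All 9 were called expressed in both lines by the authors' table, as were 17951 of all 22206 clusters. The means of Aldh1a2, Aldh1a3, Crabp1, Crabp2 and Rxrg lay below the array medians of 5.47 to 5.52 in both lines.

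The steps before retinal dehydrogenase were taken from lists of the pathway that leave out the 9 genes. Of 16 clusters for the uptake, carriage and storage of retinoids, 0 were called by limma, and at an unadjusted p under 0.05 there was 1 higher in DU6 and 0 lower. Their median log2 difference was -0.00, with a range of -0.28 to 0.38. Lrp2, the megalin that takes up retinol bound to its carrier, was at 3.90, 4.08, 3.92, 4.35 and 4.36 in DU6, against 3.98, 3.85, 3.42, 3.93 and 3.54 in FztDU, which overlapped at their edges. Its difference of 0.38 did not pass limma's test over all clusters (adjusted p = 0.706). Stra6, the receptor that takes up retinol from its binding protein, differed by -0.15 (adjusted p = 0.992). Rpe65 and Rbp3, genes of the visual cycle, were called expressed in neither line and differed by -0.23 and 0.23.

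Of 20 clusters for retinol and retinal oxidoreductases, from a list of 22 genes, 0 were called by limma. At an unadjusted p under 0.05 there was 1 higher and 0 lower, with a median difference of 0.03 and a range of -0.21 to 0.52. Adh5, an alcohol dehydrogenase found in nearly all cells, was at 6.24, 6.05, 6.53, 6.60 and 6.24 in DU6, against 5.89, 5.77, 6.06, 6.24 and 5.90 in FztDU. All DU6 arrays but replicate 2 were at or above the highest FztDU array, and its difference of 0.36 did not pass limma's test over all clusters (adjusted p = 0.685). Rdh10, the retinol dehydrogenase that leads to retinal in the embryo, differed by 0.29 (adjusted p = 0.889), and Dhrs3, which turns retinal back to retinol, by 0.21 (adjusted p = 0.970).

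Rdh5, a retinol dehydrogenase of the pigment epithelium of the eye, had the widest difference of that list, 0.52 (limma adjusted p = 0.980). It was at 7.14, 5.74, 5.34, 5.16 and 6.93 in DU6, against 5.13, 5.45, 5.33, 5.44 and 6.35 in FztDU. Its 3 highest arrays were the 3 rich in choroid plexus markers. The mean of those 15 markers was 8.06 and 7.92 in DU6 replicates 1 and 5 and 4.81 to 5.18 in the other DU6 arrays, against 7.64 in FztDU replicate 5 and 4.92 to 5.78 in the other FztDU arrays. Summed on the linear scale, they ran from 687 to 10201 in DU6 and from 869 to 8506 in FztDU, and all 15 were called expressed in both lines. The part of choroid plexus tissue in the Rdh5 values was not tested. Its difference was between 0.08 and 0.56 over the alternatives other than leaving out 1 array. Rdh16 differed by -0.21 (adjusted p = 0.971).

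Beyond synthesis, 19 clusters for other binding proteins, receptors, coregulators and clearing enzymes, from a list of 20 genes, gave 0 calls in limma's fit. At an unadjusted p under 0.05 there was 1 higher and 0 lower. Their median difference was -0.05, with a range of -0.21 to 0.53. Fabp7, the brain fatty acid binding protein of astrocytes and radial glia, was at 9.75, 10.66, 10.04, 10.40 and 10.39 in DU6, against 10.11, 9.37, 9.58, 9.88 and 9.65 in FztDU. DU6 replicates 2, 4 and 5 lay above every FztDU array, and the difference of 0.53 (95% interval 0.14 to 0.92) did not pass limma's test over all clusters (adjusted p = 0.642).

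The remaining receptors of the pathway lay close to 0. Rarg, the receptor gamma, differed by 0.17 (limma adjusted p = 0.980), Rxra by -0.05 and Rxrb by 0.05 (adjusted p = 0.994 each). The coregulators Ep300 and Ncoa1 differed by -0.21 and -0.12 and Acin1, which binds the receptors, by -0.17, none past the test. Rxra and Rxrb, and Cyp26a1 and Cyp26c1 below, were named after their values were seen.

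Genes that retinoic acid is known to induce offer a view of the pathway's output. Of 20 clusters from a list of 22 genes, 0 were called by limma and 0 passed an unadjusted p under 0.05 in either direction. Their median difference was 0.11, with a range of -0.16 to 0.39, and 15 were above 0. Cd38 differed by 0.23 (adjusted p = 0.976), and Tshz3 and Hoxb1 by -0.16 and -0.13 (adjusted p = 0.980 and 0.990). Cyp26a1, the clearing enzyme with the element in its promoter, was at 3.46, 3.50, 3.48, 3.31 and 4.02 in DU6, against 3.33, 3.45, 3.55, 3.80 and 2.91 in FztDU. Its groups overlapped, and its difference was 0.15, with a 95% interval of -0.22 to 0.51 (limma adjusted p = 0.992). Cyp26c1, another enzyme of the family, differed by -0.12 (adjusted p = 0.992).

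**Figure D3:**
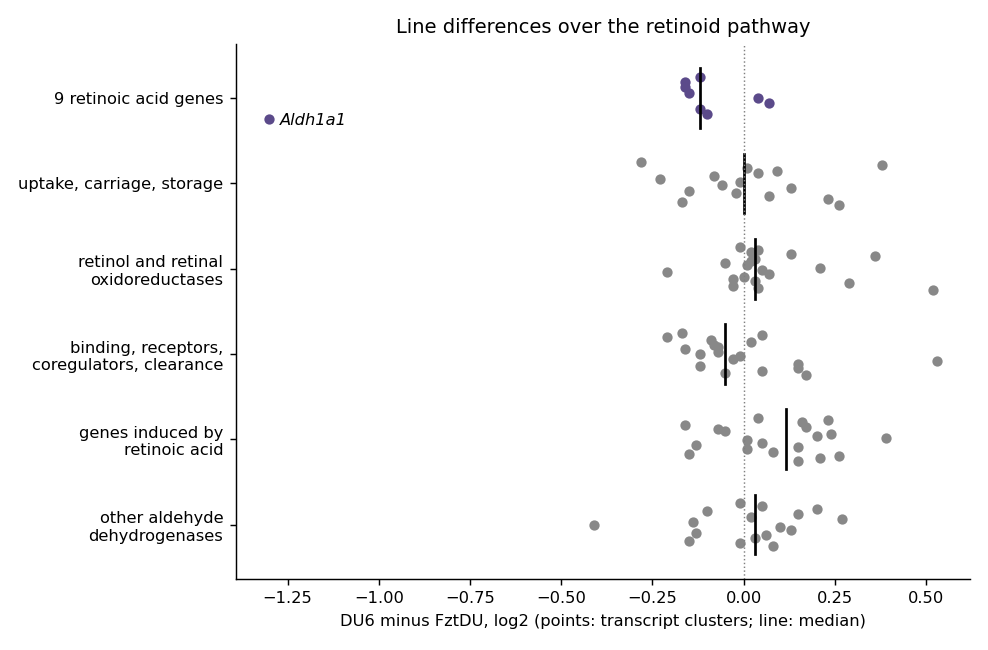
Log2 difference, DU6 minus FztDU, of the 9 retinoic acid genes (purple) and of the clusters of 5 lists of the pathway and of related enzymes (grey), 1 point per cluster, with a black line at the median of each row. Aldh1a1 lies at -1.30, and every other cluster drawn lies between -0.41 and 0.53.

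Other aldehyde dehydrogenases were examined as the wider enzyme family. Of their 17 clusters 0 were called by limma. At an unadjusted p under 0.05 there was 1 higher and 1 lower, with a median difference of 0.03 and a range of -0.41 to 0.27. Aldh5a1, which degrades the breakdown product of GABA, was at 8.0, 8.22, 8.31, 8.20 and 8.13 in DU6, against 7.92, 8.06, 7.99, 7.65 and 7.87 in FztDU, a difference of 0.27 (limma adjusted p = 0.706). Aldh3b2 was at 4.60, 4.37, 4.61, 4.87 and 4.92 in DU6, against 4.81, 4.93, 4.72, 5.77 and 5.17 in FztDU, a difference of -0.41 (adjusted p = 0.849). Aldh9a1, Aldh7a1 and Aldh3a1 differed by 0.20, 0.15 and -0.13, none past the test.

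Aldh1a7, the copy next to Aldh1a1 whose start region is printed above, did not share the pattern of values. It was at 4.69, 4.68, 4.43, 4.80 and 4.64 in DU6, against 4.71, 4.53, 4.55, 4.61 and 4.45 in FztDU. DU6 replicate 2 did not stand out at this gene, and the groups overlapped. Its difference was 0.08, with a 95% interval of -0.13 to 0.29 (limma adjusted p = 0.992). Whether its probes and those of Aldh1a1 pick up each other's RNA was not tested.

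Within 1 Mb of Aldh1a1 lay 7 clusters with 1 symbol, and 0 of them were called or passed an unadjusted p under 0.05 in limma's fit. Their median difference was 0.04, with a range of -0.21 to 0.08. Anxa1, the gene of annexin A1, starts at -228.5 kb, before Aldh1a1, and differed by -0.21 (adjusted p = 0.993). Zfand5, which starts at 670.3 kb, after it, differed by 0.04 (adjusted p = 0.994).

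**Figure D4:**
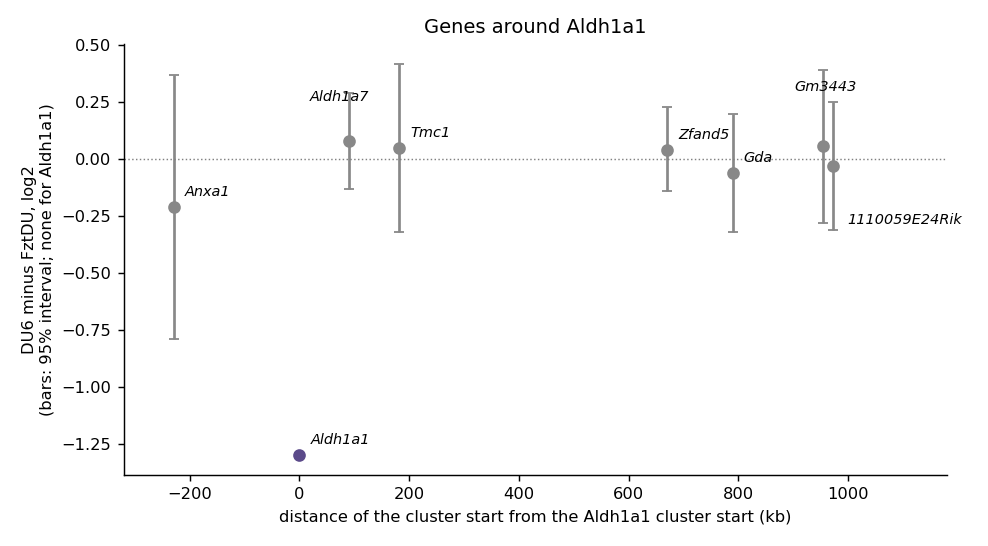
Log2 difference, DU6 minus FztDU, of Aldh1a1 and the 7 clusters within 1 Mb of it, against the distance between cluster starts in kb, with 95% intervals for the neighbours and none for Aldh1a1, which was chosen for its difference. Aldh1a1 lies at -1.30 and its neighbours between -0.21 and 0.08.

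The patterns of the 9 genes across the arrays were also compared with those of other clusters, by Pearson r between deviations from the line means. Only clusters with 1 symbol and no Gm, LOC or Rik name were ranked. These correlations describe 10 arrays that share their dissections, and carry no test. The 5 clusters most like Aldh1a1 were Rps6ka1 (r = 0.987), Lhx1 (0.978), Rnf122 (0.976), Hes3 (0.973) and Kcng4 (0.969). Rps6ka1, a ribosomal S6 kinase, was at 4.91, 7.16, 5.02, 4.68 and 4.99 in DU6, against 4.74, 4.82, 5.14, 4.66 and 4.93 in FztDU. Lhx1, a transcription factor of cerebellar Purkinje cells, was at 3.38, 5.57, 3.19, 2.95 and 3.43 in DU6, against 3.82, 2.96, 3.78, 3.36 and 3.57 in FztDU. All 5 had their highest value in DU6 replicate 2, and none had the line difference of Aldh1a1. Their differences ran from 0.21 to 0.50 (limma adjusted p between 0.967 and 0.994).

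**Figure D5:**
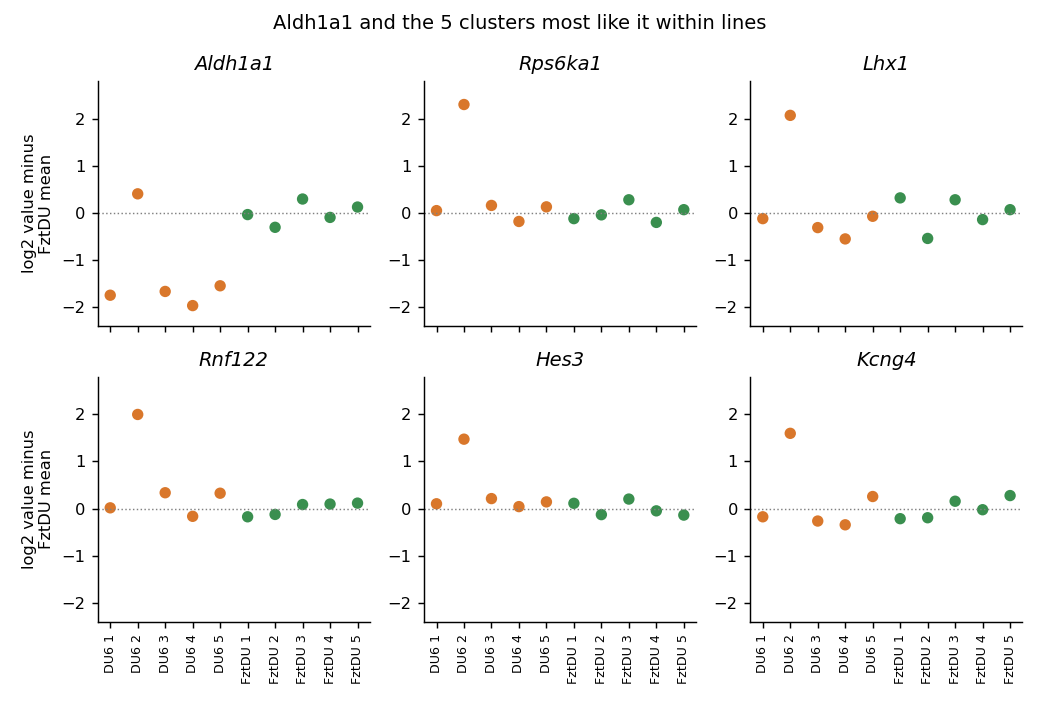
Log2 value minus the FztDU mean of Aldh1a1 and of the 5 clusters most like it within lines, on each array of DU6 (orange) and FztDU (green). DU6 replicate 2 is highest in all 6 panels, and the other 4 DU6 arrays lie well below the FztDU arrays at Aldh1a1 only.

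Without DU6 replicate 2 the likeness of Aldh1a1 rested on other genes. Over those 9 arrays Mmp15 (r = 0.938), Tbc1d31 (0.937), Ccdc187 (0.930) and Gle1 (0.926) were among the most alike. Over all 10 arrays their line differences ran from -0.07 to 0.11 and did not pass limma's test over all clusters (adjusted p between 0.991 and 0.998).

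For Aldh1a2 the clusters most alike were Ptgds (r = 0.936) and Adgrg6 (0.934). Ptgds, the prostaglandin D synthase made by meninges, choroid plexus and oligodendrocytes, was at 10.95, 10.61, 9.72, 9.76 and 10.57 in DU6, against 9.92, 10.43, 9.89, 10.95 and 10.87 in FztDU. For Cyp26b1 they were Syn3 (0.948) and Rph3a (0.946), both genes of synaptic vesicles. Syn3 was at 7.47, 7.75, 8.55, 7.65 and 8.05 in DU6, against 8.46, 8.45, 7.94, 8.29 and 8.13 in FztDU, with its highest array, DU6 replicate 3, also the highest for Cyp26b1.

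The other genes had Aoah (r = 0.935) and Rasgrp4 (0.925) as most alike for Aldh1a3, Scrn2 (0.959) and Rufy4 (0.956) for Crabp1, and Ctag2 (0.960) and Rd3 (0.947) for Crabp2. For the receptors they were Vmn2r3 (0.973) and Kbtbd2 (0.967) for Rara, Ces2b (0.937) and Dhrs11 (0.928) for Rarb, and Ccm2 (0.928) and Olfr1328 (0.904) for Rxrg. None of these was one of the 9 genes, so no pair among the 9 ranked first or second for each other.

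The arrays as a whole were alike in level, with medians of 5.47 to 5.52 on the log2 scale, and their number limits the precision. All 12 hippocampal neuron markers measured, from a list of 13, were called expressed in both lines. So were all 10 striatal and all 15 choroid plexus markers, 14 of 15 meningeal, 8 of 10 cerebellar and 8 of 10 midbrain markers. Among all 22206 clusters, 17951 were called so. The call therefore does not tell the hippocampus, which the labels name, from other tissue. In limma's fit 4 clusters were called higher in DU6 and 21 lower, and 0 markers of any tissue or cell type listed were called. Of the hippocampal markers 1 was higher and 1 lower before adjustment of the p at 0.05, with a median difference of -0.13. C1ql2, of dentate granule cells, differed by -0.65 without overlap (adjusted p = 0.300), and Spink8, of CA1 pyramidal cells, by 1.06 (adjusted p = 0.143). Without FztDU replicate 2 the Spink8 difference became 1.30 (adjusted p = 0.00504). That array, at 6.32, lay inside the DU6 range of 6.03 to 6.67 and above the other FztDU arrays. The Spink8 difference without it is therefore no independent evidence of a difference. At the unadjusted threshold the other lists gave 1 higher among 15 meningeal markers (median 0.20), 1 higher among 10 cerebellar (1.02), 1 higher among 10 endothelial and mural (0.11), 1 lower among 10 striatal (0.05), and 0 among 15 choroid plexus (0.41), 10 midbrain (0.01), 8 astrocyte (0.02) and 9 oligodendrocyte markers (0.13).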

How the data were processed

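The arrays were of the Clariom S Mouse type, with hippocampal RNA of 1 mouse on each, 5 of DU6 and 5 of FztDU. The authors used the Transcriptome Analysis Console, also named in the submitters' processing notes, for SST-RMA normalization, per the methods. The log2 values of 22206 transcript clusters per array were used as the authors deposited them, with no filter on low values, and the array annotation was on mm10. From their second table the symbols, positions, calls of expression and line averages were taken, whose decimal commas were read as points. These averages were printed for Aldh1a1, Aldh1a2, Cyp26b1 and Rara only. Its columns of fold change, p and false discovery rate hold the authors' own comparison and were not used. The number of columns of per-sample values left out was 0.

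The lines were compared by two-sided moderated tests of limma 3.58.1 under R 4.3.3, through lmFit and then eBayes, with Benjamini-Hochberg adjustment over all clusters. Calls needed a fold over 2 in either direction and an adjusted p under 0.05. Whether a label's replicates came from separate litters is not given, so p-values measure only the spread between these mice. The number of arrays limits the precision. The script was tested on simulated data first. The 9 genes and the 14 lists were chosen with earlier results of these data known. The lists were retinoid uptake, carriage and storage, retinol and retinal oxidoreductases, retinoic acid binding, receptors, coregulators and clearance, genes induced by retinoic acid, other aldehyde dehydrogenases, and markers of meningeal fibroblasts, choroid plexus, cerebellum, midbrain dopamine neurons, striatal neurons, astrocytes, oligodendrocytes, endothelial and mural cells, and hippocampal neurons. Clusters with several symbols (836) were left out of the lists.

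Named outside the 9 genes were, of each list and of the clusters within 1 Mb of Aldh1a1, called clusters and the 3 with the smallest p (up to 5 for the retinoid and dehydrogenase lists) where the text describes them, markers of a tissue with a wide range over arrays, Aldh1a7, and the clusters most like each gene by Pearson r, 5 for Aldh1a1 and 2 for each other gene, among clusters with 1 symbol and no Gm, LOC or Rik name. Genes outside this rule are marked as such. Results of 2 genes that the rule names are not reported here. Alternatives were the replicate number as a block, array weights, centring of each array on its median, quantile normalization, leaving out the lowest 25% or 50% of clusters, a trended robust eBayes, the 3 arrays rich in choroid plexus genes left out, tissue means as covariates, other thresholds, and each array left out in turn. Promoter windows came from RefSeq. Python 3.11.15, pandas 2.3.3 and matplotlib 3.10.9 were used for tables and figures.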

Additional observations from a re-analysis of the deposited data

Results flagged for a closer look

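In 18 of 186 groups of 5 arrays tested, over the genes that the naming rule gives and 5 others named in the text, 1 array lay apart from the other 4, with a gap of more than 0.71 of the group's range (Dixon's critical value for 5 samples). For a single group of independent values the rate by chance is about 1 in 20. The groups here share the same arrays, and many of the genes were named because of their values in them. The count therefore cannot be set against that rate. Of the 18, 10 were DU6 replicate 2, and 1 of the 18 groups of the retinoic acid genes was among them. That one was Aldh1a1, at 8.39 in DU6 replicate 2, high for its line.

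The others in DU6 replicate 2 were high values of Gabra6 (11.11), Fat2 (7.68), Aldoc (12.27), Rps6ka1 (7.16), Lhx1 (5.57), Rnf122 (7.22) and Hes3 (5.99), and low values of Cldn11 (8.22) and Dsp (5.31). Rps6ka1, Lhx1, Rnf122 and Hes3 were named for their likeness to Aldh1a1, so their values in this array are not independent of it. Elsewhere in DU6, Col3a1 was apart in replicate 3 (3.08), Ccm2 in replicate 4 (8.02) and Cyp26a1 in replicate 5 (4.02). In FztDU, Rdh5 (6.35), Otx2 (7.01) and Aqp1 (6.96) were apart in replicate 5, Rpe65 (3.37) in replicate 4 and Pde10a (8.10) in replicate 1.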

How the results depend on the processing

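The log2 difference of Aldh1a1 stayed below 0 in every alternative run, between -1.73 and -1.13 with each array left out in turn and between -1.84 and -1.04 in the others. The lowest of these came with the choroid plexus and cerebellar means as covariates and the highest without the 3 arrays rich in choroid plexus genes, and array weights gave -1.51. Of the 9 genes, 0 were called in the fit reported, 1 with those covariates, 1 at an unadjusted p under 0.05 with a fold over 2, and 0 to 1 with each array left out, where the 1 came without DU6 replicate 2. Each time it was Aldh1a1, and the cause was not tested. The cerebellar mean was far higher in DU6 replicate 2 than elsewhere, so the covariate fit is not independent of leaving that array out. Crabp1 and Crabp2 turned below 0 in 4 and 5 alternatives, and Aldh1a3, Cyp26b1 and Rxrg turned above 0 in 1 each, none of them by a change of scaling.

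Over all clusters the 25 calls became 16 with the lowest 50% of clusters left out, which tests fewer clusters, 51 at an unadjusted p with the fold threshold, 36 at an adjusted p alone, and 23 to 28 with each array left out. Meningeal markers gave 1 call at the unadjusted threshold (Lum), and hippocampal markers gave 1 there and 0 to 1 with each array left out. The pathway lists, the other aldehyde dehydrogenases and the clusters near Aldh1a1 gave 0 in all alternatives run.

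Nothing in the labels pairs the mice by replicate number. Deviations from the line means correlated above 0.1 in 3 of 5 same-numbered pairs (mean r 0.104, and -0.026 for other numbers), short of the all 5 pairs required here to treat the numbers as a pairing. With the replicate number as a block (replicate block) 20 clusters and 0 of the 9 genes were called, and Aldh1a1 differed by -1.30.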
